A study of Mus musculus with 20 samples.

Results

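A group of 9 genes of the pericellular matrix was followed through the dopaminergic differentiation of 2 mouse embryonic stem cell lines. They were the link protein genes Hapln1, Hapln2 and Hapln4, the lectican genes Acan, Bcan, Ncan and Vcan, and the tenascin genes Tnr and Tnc. The members were chosen by gene symbol, and all 9 were found among the 37561 genes shared by the deposited tables. Hapln1 was picked for its steep fall in the knockdown line, so its ratios and its course in that line are given as a description, with no test of a difference or a trend. The others were added as its partners in the matrix, with earlier results of these data known. Both lines were ESD3 cells, an embryonic stem cell line of strain 129s2/SvPas maintained on mouse embryo fibroblast feeders, that had been infected with a virus carrying an shRNA. The Control line carried an shRNA against luciferase and the HPRT knockdown line an shRNA against HPRT. Both were grown as spherical neural masses (SNM), clusters of neural precursors, and sequenced on each day from 0 to 4 and on every other day from 6 to 14. RNA from the cultures of a line was pooled by day, per the study's methods. Each group was 1 transduced line, and there was 1 library per line and day, 20 in all, and the p-values below measure only the spread between the days of 1 line each.

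Lecticans are proteoglycans that carry chondroitin sulfate chains and bind the long sugar polymer hyaluronan at their amino-terminal end. Link proteins bind both partners and hold the complex together, and tenascin-R and tenascin-C bind the other end of the lecticans and tie several of them to each other. In brain the mesh condenses around some neurons as the perineuronal net, while in cartilage aggrecan, the product of Acan, and the first link protein, the product of Hapln1, build the load-bearing matrix. Each link protein gene lies beside a lectican gene in the NCBIM37 (mm9) annotation. Hapln1 (Gene ID 12950, chromosome 13, 89680241 to 89751437, plus strand) and Vcan (13003, 89794915 to 89882117, minus strand) are 43.5 kb apart. Hapln4 (330790, chromosome 8, 72607428 to 72614761, plus strand) and Ncan (13004, 72616984 to 72644772, minus strand) are 2222 bases apart. Hapln2 (73940, chromosome 3, 87825672 to 87831505, minus strand) and Bcan (12032, 87791453 to 87804278, minus strand) are 21.4 kb apart. Acan (11595, chromosome 7, 86198369 to 86259985, plus strand) ends 40 bases from Hapln3, a link protein gene outside the members. Tnr (21960) spans 161667641 to 161855053 on the plus strand of chromosome 1, and Tnc (21923) spans 63620819 to 63681760 on the minus strand of chromosome 4.

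The start regions of 4 members are shown because the results below turn on them: Hapln1 and Acan moved together in the Control line, Bcan was higher in the knockdown line on each day, and Tnr rose there late. The sequences are RefSeq windows of the GRCm38.p6 build, 250 bases before to 50 bases after the start, with the dinucleotide CG, which reads the same on both strands, in capitals.
Hapln1 (chr13:89540386-89540685, plus strand): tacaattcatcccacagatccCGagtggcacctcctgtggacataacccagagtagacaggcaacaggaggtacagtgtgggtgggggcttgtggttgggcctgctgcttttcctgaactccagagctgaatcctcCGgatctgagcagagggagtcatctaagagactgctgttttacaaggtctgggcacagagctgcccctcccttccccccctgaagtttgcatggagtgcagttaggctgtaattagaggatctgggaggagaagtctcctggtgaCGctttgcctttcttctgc
Acan (chr7:79052976-79053275, plus strand): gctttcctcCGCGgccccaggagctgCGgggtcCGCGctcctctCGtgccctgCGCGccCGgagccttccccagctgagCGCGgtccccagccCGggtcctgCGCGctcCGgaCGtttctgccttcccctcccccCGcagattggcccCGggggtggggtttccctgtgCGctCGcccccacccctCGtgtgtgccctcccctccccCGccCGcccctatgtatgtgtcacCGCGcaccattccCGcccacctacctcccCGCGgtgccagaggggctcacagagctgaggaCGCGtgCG
Bcan (chr3:88000307-88000606, minus strand): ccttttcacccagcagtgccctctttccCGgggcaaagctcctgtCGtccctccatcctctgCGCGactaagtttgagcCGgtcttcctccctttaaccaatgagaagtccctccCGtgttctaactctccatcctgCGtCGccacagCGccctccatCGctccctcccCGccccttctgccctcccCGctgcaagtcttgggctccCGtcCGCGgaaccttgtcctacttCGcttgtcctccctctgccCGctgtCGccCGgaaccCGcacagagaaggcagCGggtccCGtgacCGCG
Tnr (chr1:159523519-159523818, plus strand): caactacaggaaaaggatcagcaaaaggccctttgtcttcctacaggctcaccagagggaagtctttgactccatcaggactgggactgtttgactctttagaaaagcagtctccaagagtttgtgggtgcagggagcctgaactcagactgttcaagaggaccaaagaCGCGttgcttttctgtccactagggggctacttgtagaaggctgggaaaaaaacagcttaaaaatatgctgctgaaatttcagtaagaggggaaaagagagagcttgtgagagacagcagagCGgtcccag
The Hapln1 and Tnr windows each held 3 CG, and 31.4% of the 32851 windows of the same length held 3 or fewer. The Acan window held 31, a number reached by 10.6% of windows, and the Bcan window 24, reached by 20.0%, against a median of 7. Windows were matched for 8 of the 9 members, with 9 CG for Ncan, 12 for Vcan, 2 for Hapln2 and, at its pair of start sites, 10 and 16 for Tnc.

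The deposited values were log2 values of 2 libraries at a time, relative to their mean. A log2 ratio is therefore given below as knockdown over control within the table of the day. Read counts were inferred from the rounding of the values where 1 scale scored clearly best, and are called recovered. A normalised read count is the recovered count divided by the size factor of its library, which ranged from 0.796 to 1.52. The targeted gene was lower in the knockdown throughout (10 of 10 days): Hprt lay between 561 and 927 normalised reads in the Control line and between 20.7 and 149 in the HPRT knockdown line. Neuronal transcripts were present in both lines, and the sum of the 5 neuron markers whose counts were recovered, of 12 listed, lay between 1863 and 7311 normalised reads in the Control line and between 1493 and 4026 in the HPRT knockdown line. Of the 10 neuron markers tested 7 were lower in the knockdown (against 26.5% of all genes) and none higher (against 26.4%). Day 6 was left out of the tests because the study set it aside as discrepant in its pathway analysis, and its values are given separately. Of the 9 members 8 passed the filter on low values, and Hapln2 did not.

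Hapln1 was the member with the widest range. Its knockdown libraries of days 0 to 4 held 1775, 458, 752, 481 and 867 normalised reads. Those of days 6 to 14 held 28.8, 33.1, 36.9, 4.92 and 7.55. The course was thus not an even decline: it stayed at 458 or more until day 4, and 1 interval, from day 4 to day 6, carried a step of -4.90 on the log2 scale within the table of these days. Days 8 and 10 were as low as day 6, the day left out of the tests. A further step of -2.93 followed from day 10 to day 12. The day 12 and day 14 libraries held 4 and 7 reads of Hapln1, with exact 95% Poisson intervals of 1.09 to 10.2 and 2.81 to 14.4 reads that cover counting error only.

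Control libraries held 287, 206, 77.3, 58.0 and 15 normalised reads of Hapln1 on days 0 to 4, and 30.9, 20.6, 34.6, 25.4 and 156 on days 6 to 14. Those of days 0, 1 and 14 were high and those between were low, and the slope over 9 days, -0.091 ± 0.090 log2 units per day (SE), did not pass the test (limma adjusted p = 0.442). The ratio of the lines was 2.56, 1.09, 3.32, 3.10 and 5.87 on days 0 to 4, and -0.13, 0.70, 0.14, -2.34 and -4.30 on days 6 to 14. The knockdown library was therefore higher on each of the first 5 days, with a mean ratio of 3.19 ± 1.73 (SD, n = 5 days), and lower only on days 6, 12 and 14. On day 14 the low ratio combined a rise in the Control line, a step of 2.64 from day 12, with 7 reads in the knockdown. Because each library is a whole culture, fewer cells expressing a gene and less of its RNA per cell cannot be told apart, here and below.

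**Figure D1:**
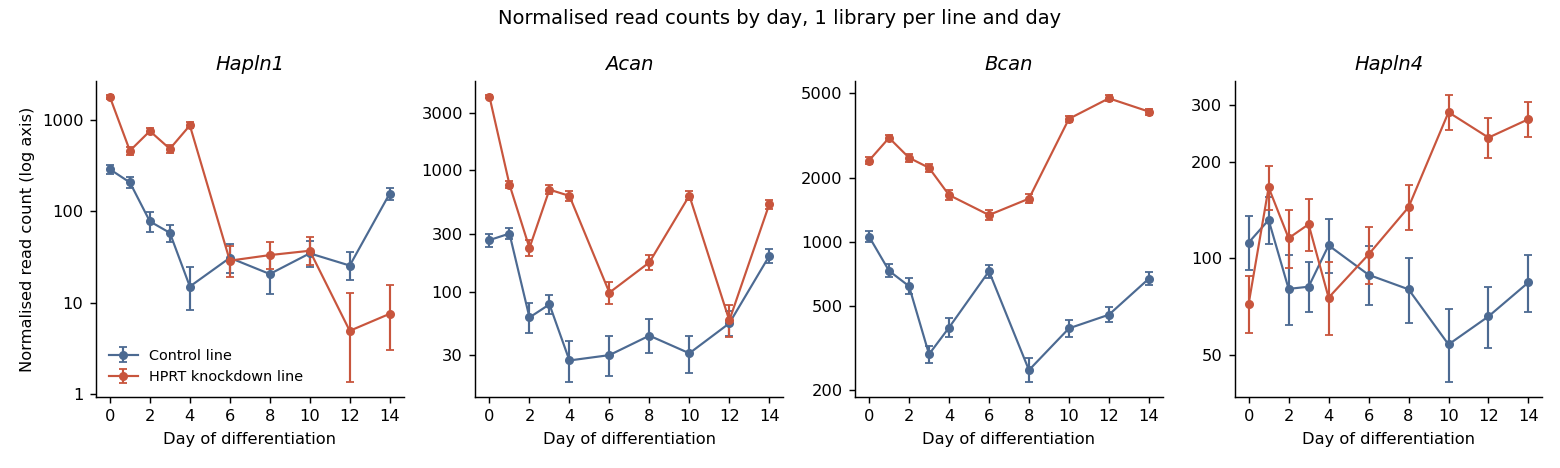
Normalised read counts (log axis) of Hapln1, Acan, Bcan and Hapln4 by day of differentiation in the Control line and the HPRT knockdown line, with bars for exact 95% Poisson intervals; each point is 1 library. Hapln1 in the knockdown line drops from 867 on day 4 to 28.8 on day 6, and the Bcan points of the knockdown line, between 1335 and 4726, all lie above those of the Control line.

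Acan, the gene of aggrecan, had a positive ratio throughout (10 of 10 days). Knockdown libraries held 4048, 763.5, 229, 693.8 and 615.9 normalised reads on days 0 to 4, and 98.0, 174, 619, 57.8 and 526 on days 6 to 14. Control libraries held 266, 301, 61.1, 78.4 and 27 on days 0 to 4, and 29.9, 43.3, 30.95, 54.7 and 197 on days 6 to 14. The knockdown values went up and down between neighbouring days with no steady course, and the lines overlapped in range. The mean ratio was 2.53 ± 1.53 (SD, n = 9 days), a 5.79-fold difference, with a limma adjusted p of 0.00132. The ratio was smallest on day 12, at 0.11, where the knockdown library held 47 reads and the control library 71, and largest on day 4, at 4.52.

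The courses of Acan and Hapln1 in the Control line were alike, with Pearson's r = 0.942 over the 9 libraries without day 6, while in the HPRT knockdown line r was 0.654. Other members shared that Control course in part: r with Hapln1 was 0.838 for Bcan, 0.732 for Vcan, 0.682 for Ncan, 0.613 for Tnr, 0.490 for Hapln4 and 0.277 for Tnc. The libraries are of 1 line on successive days and share their normalisation, so the values are descriptions. Acan and Hapln1 both left day 0 high in the knockdown line, and Acan, unlike Hapln1, was again at 619 and 526 normalised reads on days 10 and 14.

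Bcan, the gene of brevican, and Ncan, the gene of neurocan, are the lecticans most characteristic of nervous tissue, and both were higher in the HPRT knockdown line on 10 of 10 days. Bcan had a median of 536 normalised reads in the Control line, from 249 on day 8 to 1057 on day 0, and a median of 2446 in the HPRT knockdown line, from 1335 on day 6 to 4726 on day 12. All 10 knockdown libraries thus lay above all 10 control libraries, which held for 1.26% of the 13442 genes tested. The mean ratio of Bcan was 2.48 ± 0.73 (SD, n = 9 days), 5.59-fold, with a limma adjusted p of 4.55e-05. The ratio was 1.12 on day 0 and 3.42 on day 12, and on day 6 it was 0.85, the smallest of the 10.

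The counts of Ncan were too high to be recovered uniquely, so its levels are log2 values relative to its mean over the libraries. They ran from -1.92 on day 4 to -0.19 on day 1 in the Control line, with a median of -1.07, and from 0.20 on day 4 to 2.03 on day 14 in the HPRT knockdown line, with a median of 0.94. Here too the lines did not overlap. The mean ratio of Ncan was 2.31 ± 0.55 (SD, n = 9 days), 4.96-fold, with a limma adjusted p of 1.74e-05, the smallest among the members. It went from 1.63 on day 0 to 3.17 on day 14, a slope of 0.101 ± 0.014 per day (SE, limma adjusted p = 0.00673). That call was lost when day 6, with a ratio of 0.99, was kept (adjusted p = 0.0734).

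Vcan, the gene of versican, a lectican found in many embryonic tissues, differed less. Its levels lay between -0.77 and 0.00 in the Control line and between -0.63 and 0.79 in the HPRT knockdown line on the log2 scale relative to its mean, so the lines overlapped. The lowest library of each line was that of day 12. The ratio was above 0 on 8 of 9 days, from -0.07 on day 1 to 1.36 on day 4, and averaged 0.73 ± 0.51 (SD, n = 9 days), 1.65-fold, with a limma adjusted p of 0.00381. The ratio of Vcan was 0.17 on day 12 and 0.90 on day 14, the days when that of its neighbour Hapln1 was -2.34 and -4.30.

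**Figure D2:**
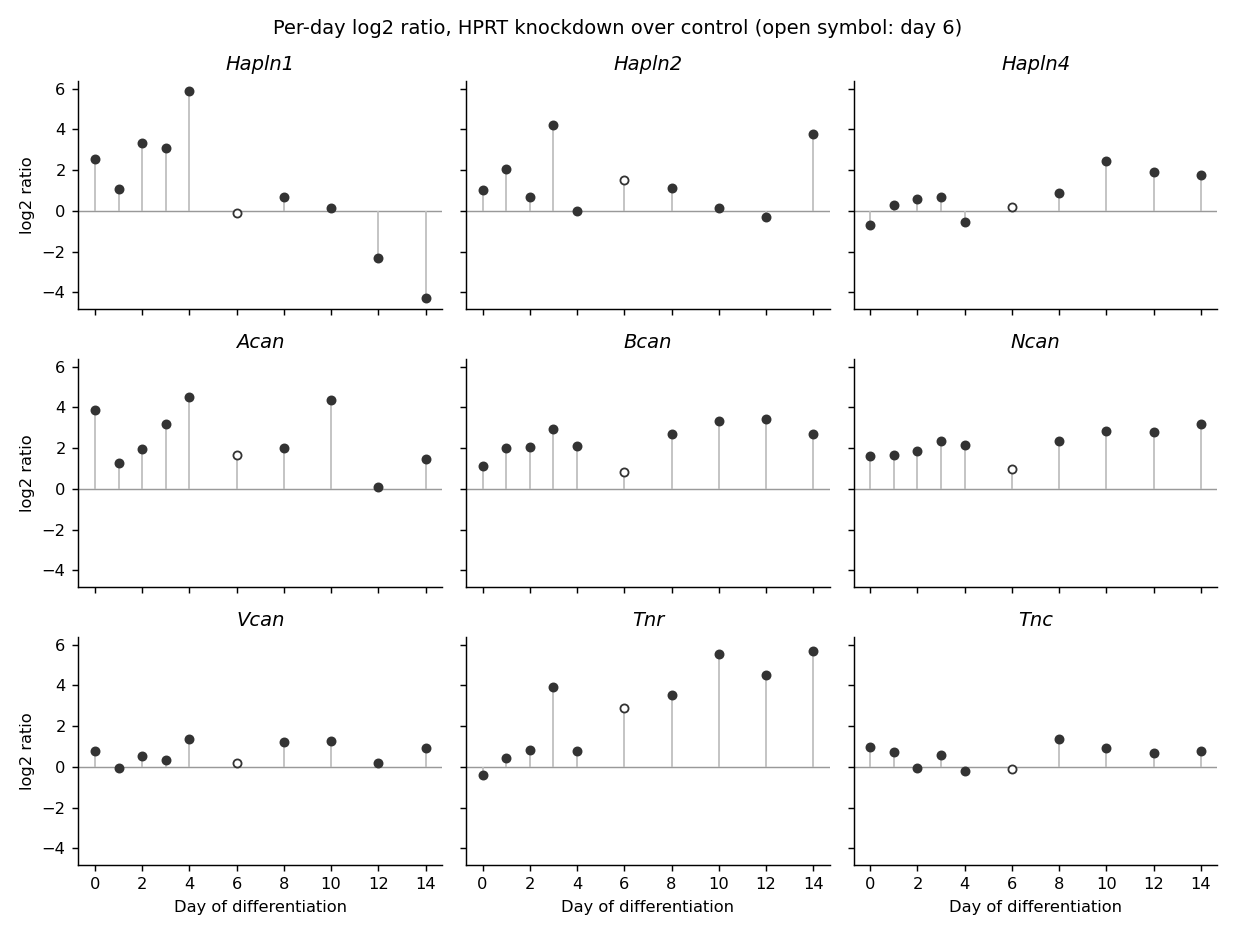
Log2 ratio of the HPRT knockdown line over the Control line within the table of each day, for the 9 members; filled points are the 9 days tested and the open point is day 6. Bcan and Ncan are above 0 on each day, Hapln1 passes from 5.87 on day 4 to -4.30 on day 14, and Tnr reaches 5.68 on day 14.

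The other link protein genes are described next, with no contrast drawn to Hapln1, which was picked for its fall. Hapln4, expressed mainly in brain, had a median of 82.9 normalised reads in the Control line, from 53.9 on day 10 to 132 on day 1. Its knockdown libraries held 72.2, 166, 115.5, 128 and 75.4 on days 0 to 4, and 103, 144, 285, 237.5 and 271 on days 6 to 14. Those of days 1, 8, 10, 12 and 14 stood above each control library, and the others lay within the control range. The mean ratio over all 9 days, 0.81 ± 1.07 (SD), did not pass the test (limma adjusted p = 0.0568), although it did without day 0 (0.0226) or without day 4 (0.0311). Its slope did: the ratio rose by 0.173 ± 0.040 per day (SE, limma adjusted p = 0.0246), from a mean of 0.06 ± 0.64 on days 0 to 4 (SD, n = 5) to 1.74 ± 0.66 on days 8 to 14 (SD, n = 4). The call on the slope was lost without day 0 (adjusted p = 0.0655), day 12 (0.072) or day 14 (0.051).

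Hapln2, the link protein of the nodes of Ranvier in myelinated tracts, was close to the limit of detection. Control libraries held 4 reads of it on day 12, 1 read on days 0, 6, 8 and 14 and was listed at the floor, at or below 1 normalised read, in the other 5 libraries. The knockdown libraries held 13.9 reads on day 3 and 11.9 on day 14, at most 4 on the other days, and was at the floor on day 4. The exact 95% Poisson intervals of the day 3 and day 14 counts, 7.58 to 23.4 and 6.11 to 20.8 reads, lay above the read count of each control library, but their own intervals overlap with that of the control library of day 12, 1.09 to 10.2 reads, and Hapln2 had too few reads to be tested. Hapln3, the remaining link protein gene, also fell below the filter, with 3.99 to 20.0 normalised reads in the Control line and 4.15 to 73.1 in the HPRT knockdown line.

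Tnr, the gene of tenascin-R, a glycoprotein made by oligodendrocytes and some neurons, had the highest mean ratio of the members. Relative to its mean, the log2 level in the HPRT knockdown line was -0.65, -0.14, -0.83, 1.71 and -1.09 on days 0 to 4, and 1.09, 1.96, 4.26, 3.40 and 4.12 on days 6, 8, 10, 12 and 14. The control level went from -0.32 on day 0 to -2.22 on day 3 and stayed between -1.91 and -1.07 afterwards. The knockdown libraries of days 1 and 3 and of each day from 6 on lay above each control library, and those of days 0, 2 and 4 lay within the control range. The ratio averaged 2.76 ± 2.35 (SD, n = 9 days), 6.78-fold, with a limma adjusted p of 0.00798, and it rose by 0.407 ± 0.071 per day (SE, limma adjusted p = 0.0114). Its values were -0.38, 0.42, 0.81, 3.91 and 0.80 on days 0 to 4, and 2.89, 3.55, 5.56, 4.51 and 5.68 on days 6 to 14. When the tables were joined into 1 level per library, the fit for Tnr missed single tables by up to 0.0782 log2 units. That is small beside the ratios of days 6 to 14. Such a fit spreads a mismatch over several tables, so the tables can disagree by more.

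Tnc, the gene of tenascin-C, which is made by precursors and many mesenchymal cells, changed little by comparison. Its log2 levels lay between -1.03 and 0.69 in the Control line and between -0.62 and 1.23 in the HPRT knockdown line, with the highest library of each line on day 3. The ratio averaged 0.64 ± 0.49 (SD, n = 9 days), 1.56-fold, was above 0 on 7 of 9 days and passed the test (limma adjusted p = 0.00598). Without the pairing of the libraries of a day, as a replicate block, the adjusted p was 0.0501.

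**Figure D3:**
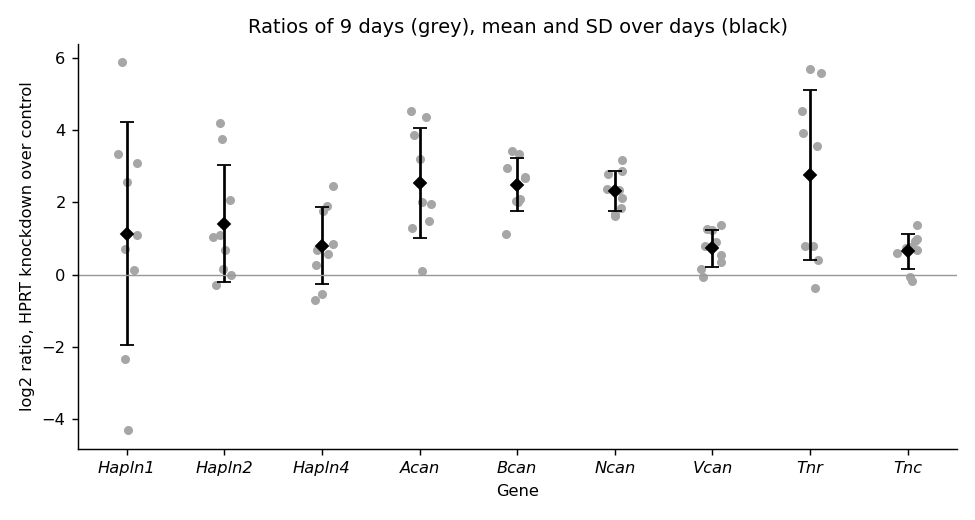
Log2 ratios of the HPRT knockdown line over the Control line for the 9 members, with 1 grey point for each of the 9 days tested and the mean and SD over days in black. The points of Bcan and Ncan are all above 1, while those of Hapln1 spread from -4.30 to 5.87.

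Over the 7 members that could be tested, 6 were higher in the HPRT knockdown line, none was lower, and Hapln4 did not pass. Over all 13442 genes 26.4% were higher and 26.5% lower, so differences between the lines were common, and the median ratio was 2.31 over these 7 members and 0.01 over all genes. Because the members were chosen with earlier results of these data known, this comparison is a description. The ratio rose with day for Hapln4, Ncan and Tnr and fell for none, against 7.35% of all genes rising and 6.7% falling. With 1 set of size factors over the libraries, an alternative chosen after seeing the data, 762 genes rose and 1004 fell, against 988 and 900. The slope of Bcan, 0.107 ± 0.033 per day (SE), had a limma adjusted p of 0.0588, and those of Acan, Vcan and Tnc had values between 0.47 and 0.636. The 4 lecticans were ordered Acan, Bcan, Ncan and Vcan by mean ratio, with the first 3 closer to each other than their SD over days.

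Within the lines few members had a slope. Hapln4 fell in the Control line by 0.067 log2 units per day, with a limma adjusted p of 0.0268, and the other 7 members that passed the filter did not pass the test. Over all genes 19.6% rose and 23.8% fell in that line, a balance that depended on the scaling: with 1 set of size factors 2928 genes rose and 2661 fell, against 2635 and 3195. Tnr rose in the HPRT knockdown line by 0.377 ± 0.063 per day (SE, limma adjusted p = 0.011) and Hapln4 by 0.112 ± 0.030 (SE, limma adjusted p = 0.0426), while Acan, Bcan, Ncan, Vcan and Tnc did not pass. Over all genes 7.33% rose and 5.39% fell in that line. These slopes join tables that were normalised separately, and those of the Control line include the day 3 to day 4 table, which disagreed with the others. The call on Tnr was lost without day 14 (adjusted p = 0.0583) or with log2(day + 1) in place of day (0.0608), that on Hapln4 in the knockdown line was lost without day 0, 2, 3, 8, 10, 12 or 14 (adjusted p from 0.0536 to 0.157) or on log2(day + 1) (0.122), that in the Control line without day 0, 1 or 12 (0.0606 to 0.0751), and with 1 set of size factors the Hapln4 slope in the Control line had 0.0678.

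The course of Tnr in the HPRT knockdown line resembled that of oligodendrocyte lineage transcripts. All 11 listed markers of that lineage passed the filter. Of these 5 were higher in the knockdown (against 26.4% of all genes), none was lower (26.5%) and the ratio rose with day for 6 (7.35%). The median log2 level of these markers over the 9 knockdown libraries without day 6 had Pearson's r = 0.97 and Spearman's rho = 0.933 with Tnr, and r = 0.962 without the 2 libraries farthest from the median. For the Control line r was 0.756, but 0.233 without the 2 farthest libraries. Other members shared the likeness in the knockdown line to a lesser degree. Hapln4 had r = 0.797 and rho = 0.767 with the same markers (r = 0.741 without the 2 farthest libraries) and Ncan 0.722 and 0.667 (0.602). Hapln1 had r = -0.806, but it was picked for its fall in that line, so the value is a description and no contrast is drawn from it. The summed level of the 8 markers with recovered counts lay between 7068 normalised reads on day 4 and 44650 on day 10 in the HPRT knockdown line, and between 2375 and 7704 in the Control line. Olig2, a transcription factor of the lineage, was 8.13-fold higher on average and Olig1 5.70-fold. Cnp, a myelin enzyme, was 4.73-fold higher, and Pdgfra 1.66-fold, with a ratio above 0 on 6 of 9 days. The median ratio of the listed markers was -0.25 on days 0 to 4 and 3.94 on days 8 to 14, as the median over days. Mag, a myelin-associated glycoprotein named here after its values were seen, had the same single early peak as Tnr, with 1184 normalised reads on day 3 between 39.98 on day 2 and 10.1 on day 4 of the HPRT knockdown line. Within days 0 to 4 of that line Sox10, Mog, Cnp and Pdgfra of the same list were also highest on day 3. Olig1, Olig2 and Cspg4 were highest on day 1 instead, Olig2 with 4635 normalised reads against 3033 on day 3. Whether a larger share of oligodendrocyte lineage cells accounts for the Tnr values was not tested.

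The courses of Hapln1 and Acan in the Control line resembled that of cartilage markers, with Pearson's r = 0.863 and Spearman's rho = 0.80 for Hapln1 and r = 0.845 and rho = 0.667 for Acan, and r = 0.773 and 0.755 without the 2 farthest libraries. The likeness was not particular to these genes: in the same line Bcan had r = 0.856 and rho = 0.767 (r = 0.773 without the 2 farthest libraries), Tnr r = 0.716 and rho = 0.85 (0.918), and Ncan r = 0.4997 and rho = 0.583 (0.948). For the HPRT knockdown line r was 0.412 for Hapln1 and 0.727 for Acan, and turned to -0.413 and -0.263 without the 2 farthest libraries, so that resemblance rested on those libraries. Members past the filter were set beside every marker list, and only some likenesses are given. With cardiac muscle markers Hapln1 had r = 0.651 in the knockdown line, where it was picked. With astrocyte markers r in the Control line was 0.763 for Bcan, 0.748 for Ncan and 0.764 for Tnr (0.494, 0.851 and 0.646 without the 2 farthest libraries). Of the 12 listed cartilage markers 8 passed the filter, 5 were higher in the knockdown (against 26.4% of all genes) and 1 was lower (26.5%), with a median ratio of 1.10. The 5 markers with recovered counts summed to 99.4 to 969.5 normalised reads in the Control line and 249.5 to 1761 in the HPRT knockdown line, highest on day 0. Matn1, matrilin of cartilage, named here after its values were seen, was at the floor in the knockdown libraries of days 1, 2, 10 and 12 and in the control library of day 4. Its highest library was the knockdown library of day 0, with 61.2 normalised reads. Other listed markers kept reads in those 4 knockdown libraries, with 75.9, 467.6, 194 and 275 for Col9a2 and 93.8, 7.27, 38.0 and 62.7 for Comp. The part of cartilage cells in the Acan and Hapln1 values was not tested. Markers of the interneurons that carry perineuronal nets were also counted: of 6 listed, 5 passed the filter, 2 were higher and 1 was lower in the knockdown. Their summed level, over 4 markers, lay between 486 and 1762 normalised reads in the Control line and between 539.5 and 2054 in the HPRT knockdown line. Of the markers tested, 7 of 10 for astrocytes were higher and 1 lower, while none was higher and 3 were lower in each of the lists for fibroblasts and feeder cells (10 tested), cardiac muscle (4 tested) and endothelium (6 tested). Over all genes 26.4% were higher and 26.5% lower, so 3 of 10 lower for fibroblasts and feeder cells was near that share. The 5 interneuron markers were too few to be set apart from these shares.

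**Figure D4:**
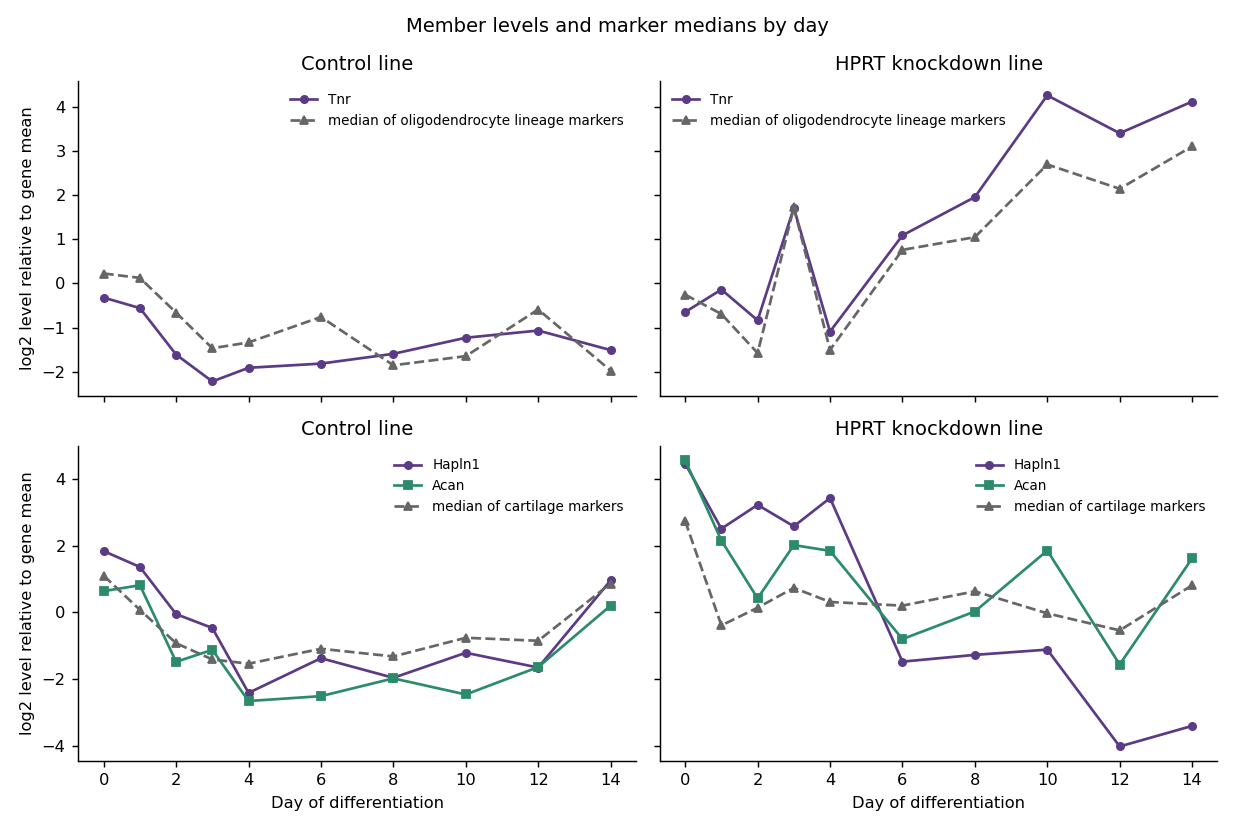
Log2 level relative to the gene mean over the 20 libraries, by day, for Tnr beside the median of the oligodendrocyte lineage markers (top) and for Hapln1 and Acan beside the median of the cartilage markers (bottom), in the Control line (left) and the HPRT knockdown line (right). In the knockdown line Tnr and the oligodendrocyte lineage median share the peak on day 3 and the rise from day 6, and Hapln1 stays below the cartilage median from day 6 on.

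The 5 genes whose levels were most like those of Hapln1 over the 18 libraries without day 6 were Ddit4l with Pearson's r = 0.867, Col2a1 with 0.852, Slc16a6 with 0.844, Nck2 with 0.826 and 1500011H22Rik with 0.822, against a median of 0.02 over all genes. Only Col2a1, the gene of type II collagen, the main collagen of cartilage and among the listed cartilage markers, was as close in the Control line (r = 0.956) as in the HPRT knockdown line (r = 0.854). The other 4 had r between 0.341 and 0.651 in the Control line and between 0.857 and 0.945 in the HPRT knockdown line. Col2a1 differed between the lines by more than the other 4 did early, with a mean ratio of 2.31 on days 0 to 4 and 0.56 on days 8 to 14 and a knockdown-line slope of -0.312 per day, where that of Hapln1 was -0.600. Among the members Acan was the most like Hapln1 over the 18 libraries, with r = 0.675, and Tnr the least, with -0.342.

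The wider matrix was followed in 6 lists of 93 genes, of which 79 passed the filter. Of these 43 were higher in the HPRT knockdown line (54.4%, against 26.4% of all genes) and 8 were lower (10.1%, against 26.5%), with a median ratio of 0.44. The enzymes that build and sulfate chondroitin chains took the largest part, with 18 of 27 higher, 1 lower and a median ratio of 0.53. Xylt1, the xylosyltransferase that starts the chain on the core protein, was 4.53-fold higher, at 2.18 ± 0.54 (SD, n = 9 days, limma adjusted p = 2.17e-05). Csgalnact1, which adds the first N-acetylgalactosamine, was 2.84-fold higher, with a ratio above 0 on 9 of 9 days, and B4galt7, which adds the first galactose, was at 0.33 ± 0.16 (SD, n = 9 days). The enzyme that was lower was Chst15, a sulfotransferase, at -0.46 ± 0.31 (SD, n = 9 days). For Xylt1 the fit that joined the tables missed single tables by up to 0.223 log2 units.

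Among the genes of hyaluronan synthesis, turnover and receptors 6 of 13 were higher and 2 lower. The highest were Itih3 at 2.35 ± 0.78 and Itih2 at 2.07 ± 1.38 (SD, n = 9 days), whose products are transferred onto hyaluronan. The lower pair was Hmmr, a hyaluronan-binding protein of dividing cells, at -0.79 ± 0.42, and Tmem2, a hyaluronidase of the cell surface, at -0.86 ± 0.46. Of the 15 proteases and inhibitors 6 were higher and 2 lower, and the median ratio was -0.01. Timp4, an inhibitor of metalloproteinases, had a mean ratio of 2.13 ± 0.60 and Adamts4, which cleaves aggrecan and brevican, of 1.77 ± 1.17 (SD, n = 9 days), both above 0 on 9 of 9 days. Adamts8 was 2.37-fold lower on 9 of 9 days and Adamts20 1.83-fold lower on 8 of 9 days.

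Of the 13 other tenascins and receptors tested 7 were higher and none lower. Cntn1, contactin 1, a neuronal adhesion molecule that binds tenascin-R, was at 2.39 ± 2.01 and Itga2, an integrin subunit, at 1.77 ± 1.83 (SD, n = 9 days), while Ptprs, a receptor for chondroitin sulfate, was 1.35-fold and Itgb1 1.25-fold higher. Of the 11 other proteoglycans of neural tissue 6 were higher and 3 lower. Cspg4 (NG2), a marker of oligodendrocyte precursors that also stands in that marker list, was 5.695-fold higher and Ptprz1, a phosphatase that carries chondroitin sulfate, 3.49-fold, both on 9 of 9 days. Bgn, biglycan of connective tissue, was 2.68-fold lower and Spock3, a testican, had a mean ratio of -1.85 ± 1.19 (SD, n = 9 days), both below 0 on 9 of 9 days. These lists were written with earlier results of the same libraries known, and their counts are descriptions.

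**Figure D5:**
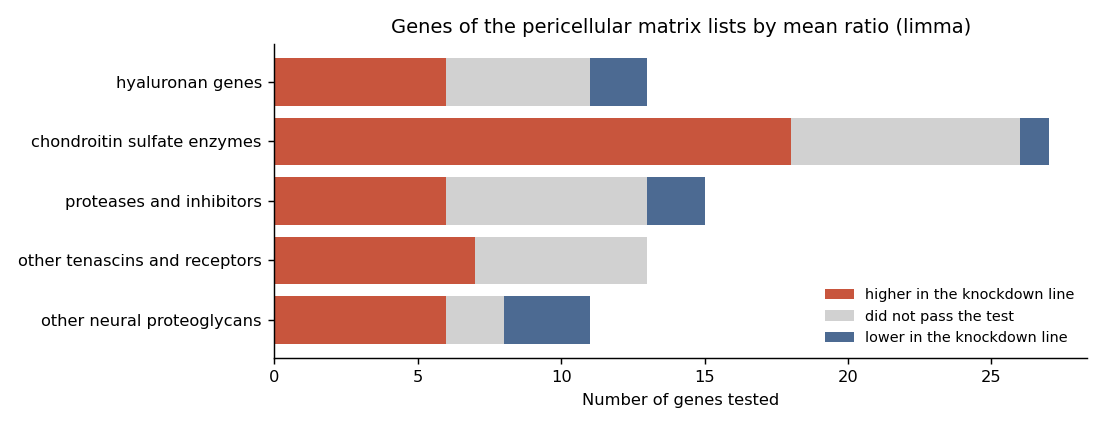
Number of genes tested in each of 5 matrix lists, split into those higher in the HPRT knockdown line, those that did not pass the limma test and those lower. The chondroitin sulfate enzymes have 18 of 27 genes higher and 1 lower; the list of link proteins outside the members is not drawn because its gene, Hapln3, fell below the filter.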

How the data were processed

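Total RNA of each line and day was prepared with the TruSeq RNA v2 kit, which does not mark strand, and sequenced for 50 cycles. Per the study's methods and the submitters' processing notes the reads were processed in CASAVA 1.8.2, aligned by ELAND to mm9, counted per gene in Avadis NGS with partial reads included, and normalised with DESeq. The authors deposited 28 tables on a log2 scale, each holding 2 libraries centred on their mean: 10 pair the lines within a day and 9 per line pair consecutive days. A value at or below 1 normalised read had entered as 0, which understates ratios of low genes. Groups were taken from the labels.

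Size factors of each table were read from genes with few reads in 1 library and none in the other. The log2 values then closed around loops of 4 tables within 1e-05 for 91.4% to 93.1% of 13442 genes in 8 of 9 loops. In the loop of days 3 and 4 only 0.06% closed, and the Control day 3 to day 4 table was left out when 27 tables were joined by least squares into 1 level per library. Scales were scored by how well they gave whole numbers of reads, or of 49ths of a read, and matched the single-precision rounding steps. A count was accepted when the next-best scale scored at least 10 lower, so these counts are best-scoring inferences. Counts were recovered for Hapln1, Hapln4, Acan, Bcan, Hapln3 and Hprt, and for Hapln2 from its floor values. For Vcan and Tnc the rounding of all 27 tables corresponded to at least 256 normalised reads in both libraries, for Ncan that of 26 and for Tnr that of 20. Read totals were not used here. Genes entered the tests when their typical log2 normalised read count was at least 4. Both steps were tested on simulated data.

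Ratios of 9 days without day 6 were tested with limma 3.58.1 in R 4.3.3 (lmFit and eBayes, intercept or slope on day), with Benjamini-Hochberg adjustment over all 13442 genes and a threshold of 0.05. Slopes within a line used values added up over its consecutive-day tables. For the Control line these include the day 3 to day 4 table that disagreed with the others. With the 27 tables joined without it, 5721 genes had a slope that passed in that line, against 5830. The libraries of a day were paired because both lines were collected on it, and the deviations of a pair from the line means had r = -0.0026 over genes on day 0 and 0.1415 to 0.4296 on the other 8 days tested. Which lane held which library is not given in the sources used here, and batches were not examined. Figures were drawn with matplotlib 3.10.9.

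The named genes were the 9 members, Hprt, the 5 genes most correlated with Hapln1, and in each list the called genes with the 2 highest and 2 lowest mean ratios. Hapln3 is named as the only gene of its list, and the rule was also applied to the oligodendrocyte markers. Mag, Sox10, Mog, Matn1, Col9a2 and Comp were named after their values were seen. The members and lists were chosen with earlier results of these data known. Alternatives were another filter, day 6 kept, each day left out, slope on log2(day + 1), centred ratios, exact sign flips over days, no pairing and other joins of the tables. The join of 27 tables and 1 set of size factors over the 20 libraries were added after seeing the data.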

Additional observations from a re-analysis of the deposited data

Results flagged for a closer look

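The 3 members Hapln4, Ncan and Tnr had a ratio of the lines that changed with day in the limma test of the difference between the lines, by Benjamini-Hochberg adjusted p under the threshold of 0.05. The slope of the ratio was 0.173 log2 units per day for Hapln4, 0.101 for Ncan and 0.407 for Tnr, higher on the late days in each. In 25 sets of 10 values, the per-day ratios of the 9 members and the levels of 8 of them in each line, no single day stood apart by Dixon's criterion at the 95% level, where chance flags about 1 set in 20. The sets include the Hapln1 ratios and knockdown-line levels, by which it was picked, and the Hapln2 ratios, which rest on few reads. No conclusion is drawn from the screen for these.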

How the results depend on the processing

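The number of genes with a mean ratio passing the test, 7110, stayed within 1.5 times under each alternative run, with 5693 when the libraries of a day were not paired (no replicate block) and 6233 to 7237 with a day left out. Without that pairing Tnc missed the threshold and Hapln4 passed it (adjusted p = 0.0239), and no other member's call changed. For the ratio trend the 1888 genes became 1057 with day 6 kept and 603 to 1656 with a day left out, lowest without day 12 (1054 without day 10 and 848 without day 14). For the control line the 5830 genes became 3826 with a slope on log2(day + 1) and 4523 to 6178 with a day left out. For the HPRT knockdown line the 1710 genes became 136 with log2(day + 1) and 208 to 2904 with a day left out, lowest without day 14 and highest without day 0 (750, 859 and 425 without days 2, 10 and 12). The cause was not tested. Among the tested values of single members, 367 kept direction and side of the threshold, 19 no longer passed, 11 newly passed and 2 reversed: the control-line slope of Ncan was 0.0075 without day 1 (with a day left out, from -0.0302), and the knockdown-line slope of Vcan was 0.0161 without day 12 (from -0.0388). The Bcan ratio trend passed without day 3 (adjusted p = 0.0321), without day 14 (0.0431) and on log2(day + 1) (0.0243). Exact sign flips over 9 days kept the calls of Acan, Bcan, Ncan, Vcan, Tnr and Tnc, at adjusted p between 0.0132 and 0.0345, the smallest possible unadjusted p being 0.00391. Counts below about 10 reads, as in Hapln2 and the late Hapln1 libraries, limit what can be said of a fold change.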

Other observations

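Ratios of the lines for 3 link protein genes and their lectican neighbours in the genome are given side by side. On day 4 the ratio of the lines was 5.87 for Hapln1 and 1.36 for Vcan, and on day 14 it was -4.30 and 0.90. Hapln4 and Ncan, 2222 bases apart, had ratios of -0.53 and 2.13 on day 4, where they differed most, and of 1.75 and 3.17 on day 14. Hapln3, which ends 40 bases from Acan on the opposite strand, had 73.1 normalised reads in the knockdown library of day 8 and 6.49 in the control library of that day, a ratio of 3.50, where Acan had 2.02. They differed most on day 0, with a ratio of 0.18 for Hapln3 and 3.86 for Acan. The kit did not mark strand, so reads at the meeting ends of Hapln3 and Acan cannot be assigned by strand.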
